A study of Mus musculus with 6 samples.

Results

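The nuclear-encoded subunits of the mitochondrial respiratory chain and ATP synthase were compared between 3 wild-type libraries and 3 libraries labelled Git2-knockout, prepared from intestinal epithelial cells of mice aged 12 days. Members were chosen by symbol. They are the numbered Nduf subunits, Sdha to Sdhd, the Uqcr genes, Cyc1, the numbered Cox subunits with a letter, and the Atp5 genes, 85 of the 18159 genes in the table. Complex I held 39 members, complex II 4, complex III 9, complex IV 16 and complex V 17. Ndufa4 and Ndufa4l2 were counted with complex IV, where their proteins are known to sit, although their symbols are those of complex I. Sample titles name knockout mice, but their genotype entry reads knockdown, and the design text calls all samples enteroids. No strain, altered exon or number of animals per library is given in the sources used here. P-values therefore measure only the spread between these libraries, which may be technical.

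Complexes I and II take electrons from NADH and succinate and pass them to ubiquinone. Complex III hands them to cytochrome c and complex IV to oxygen, and complexes I, III and IV pump protons across the inner membrane as they do so. Complex V, the ATP synthase, lets the protons flow back through its c-ring and makes ATP. Absorptive cells of the gut use this ATP for ion and nutrient transport. A few subunits of complexes I, III, IV and V are encoded in mitochondrial DNA, and the table held 0 of those 13 mRNAs, so only the nuclear part of each complex was measured.

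The libraries held 16284414 to 19106581 estimated reads. Git2, a scaffold protein that regulates Arf GTPases, stood at 9.34, 9.84 and 9.33 TPM in wild type and at 8.06, 7.58 and 7.97 TPM in the libraries labelled Git2-knockout, with no overlap. TPM is a level per transcript length, scaled to the same total in every library. The reduction was partial, and directions are those of the labels. The 10 epithelial markers summed to 13543 to 14059 TPM in wild type and 12995 to 13098 TPM in the other libraries, and 8 of the 10 fell. The 7 fibroblast markers summed to 17.8 to 19.3 TPM in wild type and 64.2 to 70.0 TPM in the libraries labelled Git2-knockout, and all 6 tested rose. The 6 endothelial markers went from 12.8 to 13.6 TPM up to 32.2 to 35.1 TPM, with all 6 rising. The 6 red blood cell genes went from 83.0 to 87.4 TPM up to 302 to 328 TPM, with 4 of 5 tested rising. Smooth muscle markers summed to 95.4 to 101 TPM and 105 to 117 TPM, and 4 of 6 tested rose. The 6 macrophage markers summed to 152 to 157 TPM and 119 to 125 TPM, with 2 rises and 1 fall. The 5 B cell markers summed to 19.3 to 20.5 TPM in wild type and 7.65 to 9.34 TPM in the other libraries, and all 5 fell. Rises and falls here are those of the edgeR fit without a length term described below, where 27.4% of all genes fell and 29.6% rose. With the length trend removed, 7 epithelial markers fell, and with the GC trend removed too 4 fell and 3 rose. The length fit gave 4 rises and 1 fall for macrophages and 3 rises and 1 fall for smooth muscle. Fibroblast, endothelial, red blood cell and B cell markers kept their directions. The part of these cell types in the results that follow was not tested, and in bulk RNA fewer cells of a type and less RNA per cell cannot be told apart.

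Respiratory chain mRNAs were abundant and lower in the libraries labelled Git2-knockout. Together the 85 members made up 25061, 25008 and 25181 TPM in the wild-type libraries and 21921, 20728 and 20600 TPM in the others. The means were 25083 ± 88.4 and 21083 ± 728 TPM (SD, n = 3 libraries each), so that the summed level was 84.1% of wild type. The first library labelled Git2-knockout was the highest of its group, and the groups did not overlap. Of the 80 members with enough counts to be tested, 59 were lower in TPM without overlap, 3 were higher without overlap and 18 overlapped. Among all 13558 tested genes, 16.2% were lower and 46.4% higher in TPM without overlap. The median tested gene stood at 113% of wild type in TPM, and the median member at 83.7%.

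By complex, the reduction in summed level was of a like size except in complex II. Complex I summed to 6439, 6377 and 6391 TPM in wild type and 5559, 5312 and 5214 TPM in the libraries labelled Git2-knockout, 83.7% of wild type. Complex III stood at 83.3%, complex IV at 81.3% and complex V at 84.9%. Complex II summed to 1062, 1076 and 1052 TPM against 1006, 996 and 1013 TPM, 94.5% of wild type. In each of the 5 complexes every library labelled Git2-knockout was below every wild-type library. The difference between complexes was not tested. With the length trend described below removed, median log2 fold changes were -0.10, -0.12, -0.18, -0.09 and -0.13 in complexes I to V. Complex II then no longer stood apart.

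**Figure D1:**
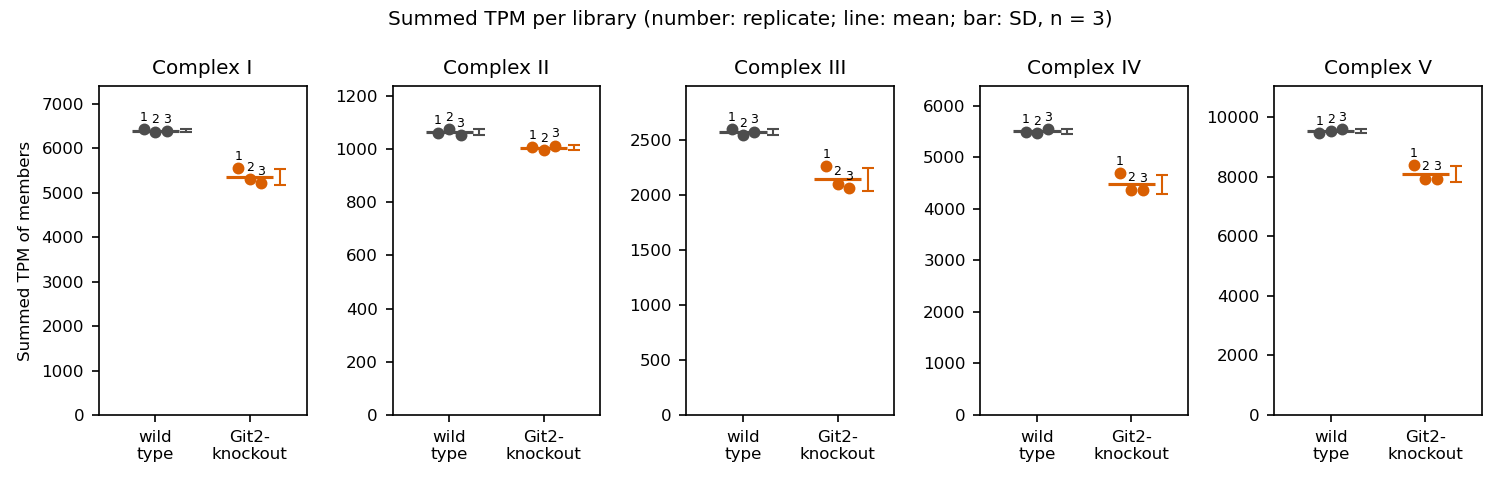
Summed TPM of the members of each complex, 1 panel per complex, with 3 wild-type libraries in grey and 3 libraries labelled Git2-knockout in orange; numbers are replicates, horizontal lines means and bars SD. The groups do not overlap in any complex, the gap is narrowest in complex II, and replicate 1 is the highest of the libraries labelled Git2-knockout in complexes I, III, IV and V.

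Within a complex, classes of subunit stood at different shares of wild type, lowest for the small subunits of complexes III and V, and the differences between classes were not tested. In complex I the 7 core subunits, which hold the flavin and iron-sulphur clusters, summed to 92.1% of wild type and the 32 accessory subunits to 82.0%. The small subunits of complex III stood at 76.0%, from 1631 ± 28.5 to 1240 ± 89.2 TPM. Its redox subunits, Cyc1 and Uqcrfs1, stood at 94.6% with overlapping groups. In complex V the F1 head and central stalk, where ATP is made, stood at 90.1%, the peripheral stalk at 88.9%, the c-ring at 78.0% and the small membrane subunits at 76.6%. The catalytic pair of complex II, Sdha and Sdhb, stood at 98.6% with overlapping groups, and its membrane anchors Sdhc and Sdhd at 91.0%. SDs are over 3 libraries each. These shares are not corrected for the trend with transcript length described below. Median length was 1492 bases for core and 627 for accessory subunits of complex I, and 352 for the small membrane subunits of complex V. With that trend removed, median log2 fold changes were -0.10 for core and -0.09 for accessory subunits. In complex III they were -0.18 for small and -0.08 for redox subunits. In complex V they were -0.25 for F1 and -0.08 for small membrane subunits.

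**Figure D2:**
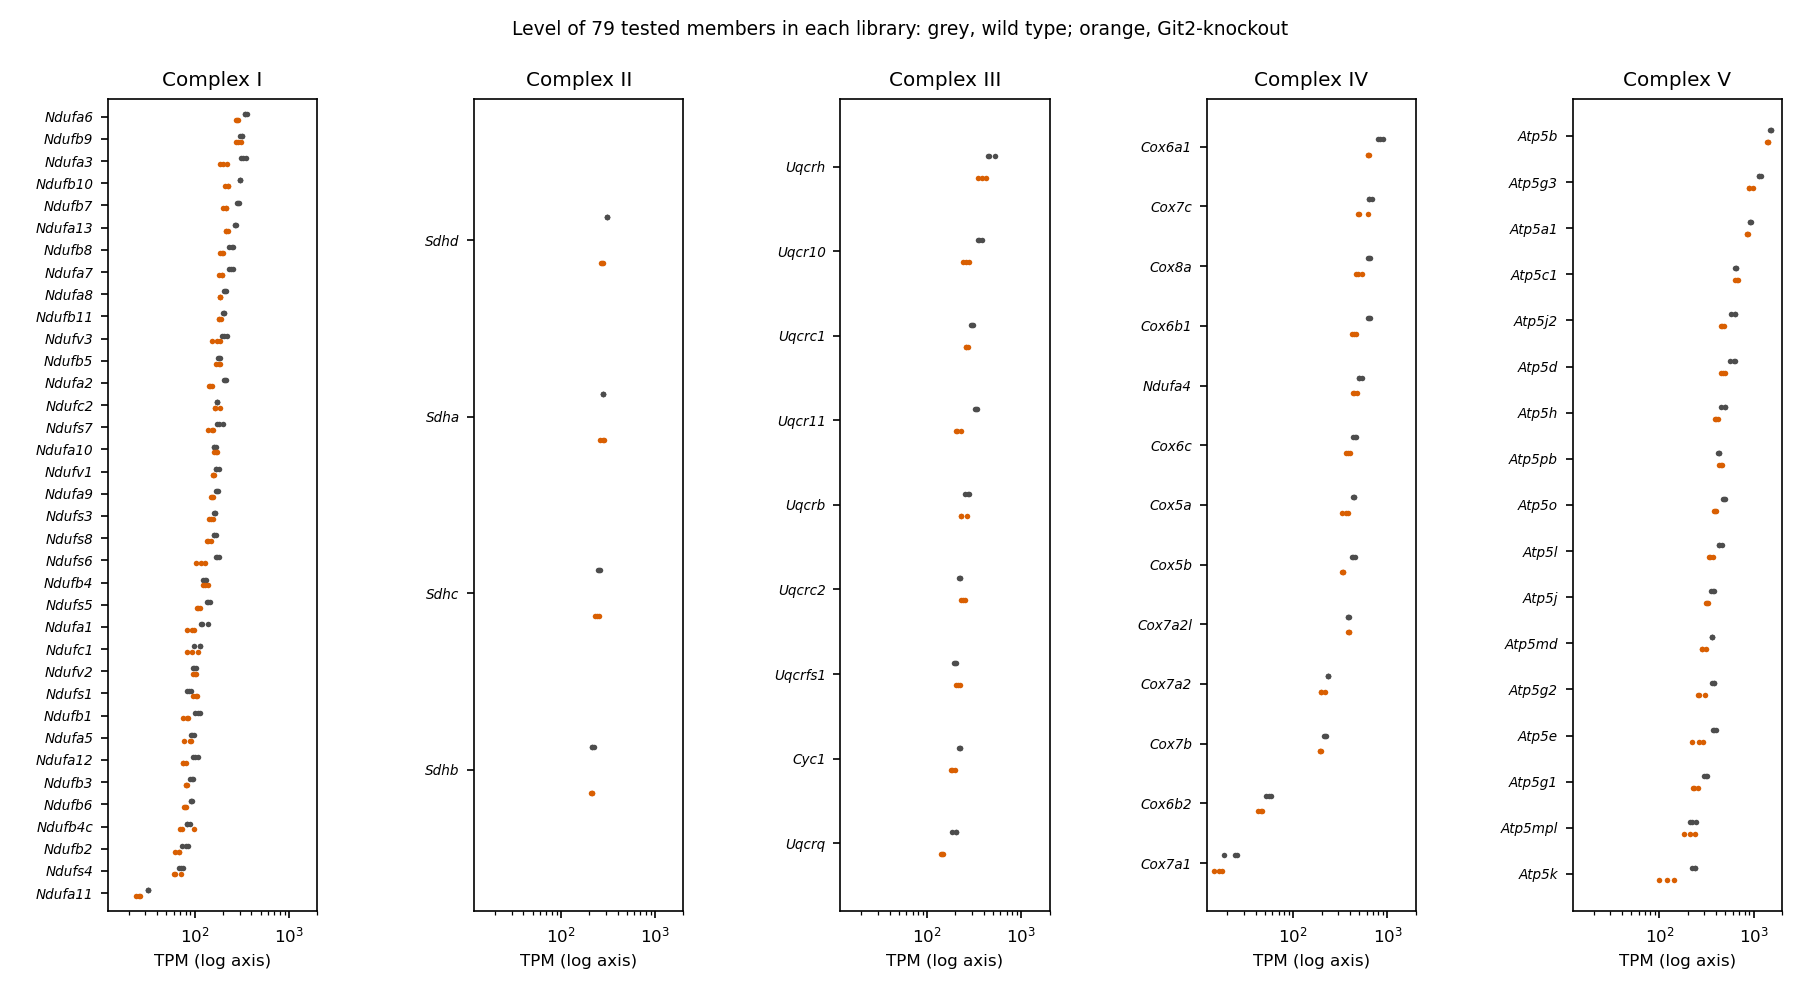
TPM (log axis) of 79 of the 80 tested members in each of the 6 libraries, by complex and ordered by mean level; grey points are wild-type libraries and orange points libraries labelled Git2-knockout. Orange points lie to the left of the grey ones for most members, with 59 of the 80 tested not overlapping, while Ndufs1, Uqcrc2 and Atp5pb lie to the right.

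Tested gene by gene on counts, nearly every member fell, and so did most other genes with short transcripts. With edgeR's quasi-likelihood test and Benjamini-Hochberg adjustment over all 13558 genes, 73 of 80 members fell and 0 rose at an adjusted p of 0.05. Over all genes tested, 27.4% fell and 29.6% rose. In CPM, reads scaled to library size, 72 members were lower without overlap, beside 30.6% of all genes. The median log2 fold change of the members was -0.41, against 0.02 for all genes tested. The counts were 33 of 37 in complex I (median -0.36), 4 of 4 in complex II (-0.21), 7 of 9 in complex III (-0.42), 13 of 13 in complex IV (-0.45) and 16 of 17 in complex V (-0.47). The members not called were Ndufs1, Ndufa10, Ndufb4, Ndufb4c, Uqcrc2, Uqcrfs1 and Atp5pb.

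The members have short transcripts, and the change in these libraries followed transcript length. The median length implied by counts and FPKM was 638 bases for the members and 2762 bases for all tested genes, and 58 of the 80 members were at most 1000 bases long. Among 916 other genes of at most 1000 bases, 63.5% fell and 5.68% rose, with a median of -0.35, and the 58 members of that length had a median of -0.47. Over the 80 members, Spearman's correlation between length and log2 fold change was 0.59, and over all 12629 genes with a length it was 0.49. These are descriptions over genes that share the same 6 libraries.

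The length trend also differed among libraries of 1 group. Genes of at most 500 bases lay 0.25, 0.26 and 0.27 above their mean over the 6 libraries (median, log2 CPM) in wild type. They lay at -0.15, -0.31 and -0.35 in the libraries labelled Git2-knockout, and the first of these had the flattest trend. Genes above 5000 bases had the opposite sign, at -0.10, -0.13 and -0.16 in wild type and at 0.03, 0.20 and 0.16 in the others. Whether the trend is a property of the RNA, of the library preparation or of the cells was not tested.

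**Figure D3:**
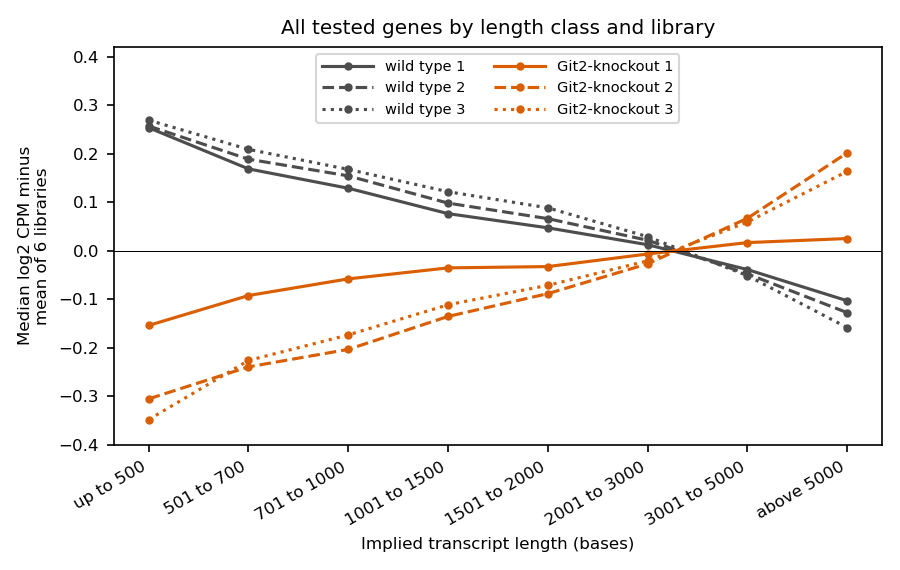
Median log2 CPM of all tested genes minus their mean over the 6 libraries, by class of implied transcript length (bases), 1 line per library. Wild-type lines (grey) run from about 0.25 to 0.27 in the shortest class to below 0 in the longest, and lines of the libraries labelled Git2-knockout (orange) run the other way, flattest in replicate 1.

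The fit was therefore repeated with each library's length trend removed, which leaves the question of how a member differs from other genes of its length. Then 37 of 80 members fell, 6 rose and 37 were not called. In that fit 32.8% of all genes fell and 23% rose. The median of the members was -0.10 and that of all genes -0.04. Falls and rises numbered 16 and 3 in complex I (median -0.10), 2 and 0 in complex II (-0.12), 5 and 1 in complex III (-0.18), 5 and 0 in complex IV (-0.09) and 9 and 2 in complex V (-0.13). All 37 falls were falls without a length term too. A further 33 members lost the call, and 3 members, Ndufb5, Ndufc2 and Atp5mpl, turned from a fall to a rise. Ndufb4, Uqcrfs1 and Atp5pb rose without having been called before. Of the 58 members of at most 1000 bases 25 fell and 4 rose, beside 29% and 18.3% of the 916 other genes of that length. Of the 22 members above 1000 bases 12 fell and 2 rose, with a median of -0.15. In the length classes ending at 1500, 2000 and 3000 bases, 5 of 13, 4 of 5 and 3 of 4 members fell. Among other genes of these classes 28.7%, 31.2% and 33.9% fell. The difference between members and other genes of a class was not tested. Spearman's correlation between length and log2 fold change over the 80 members was then -0.10.

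**Figure D4:**
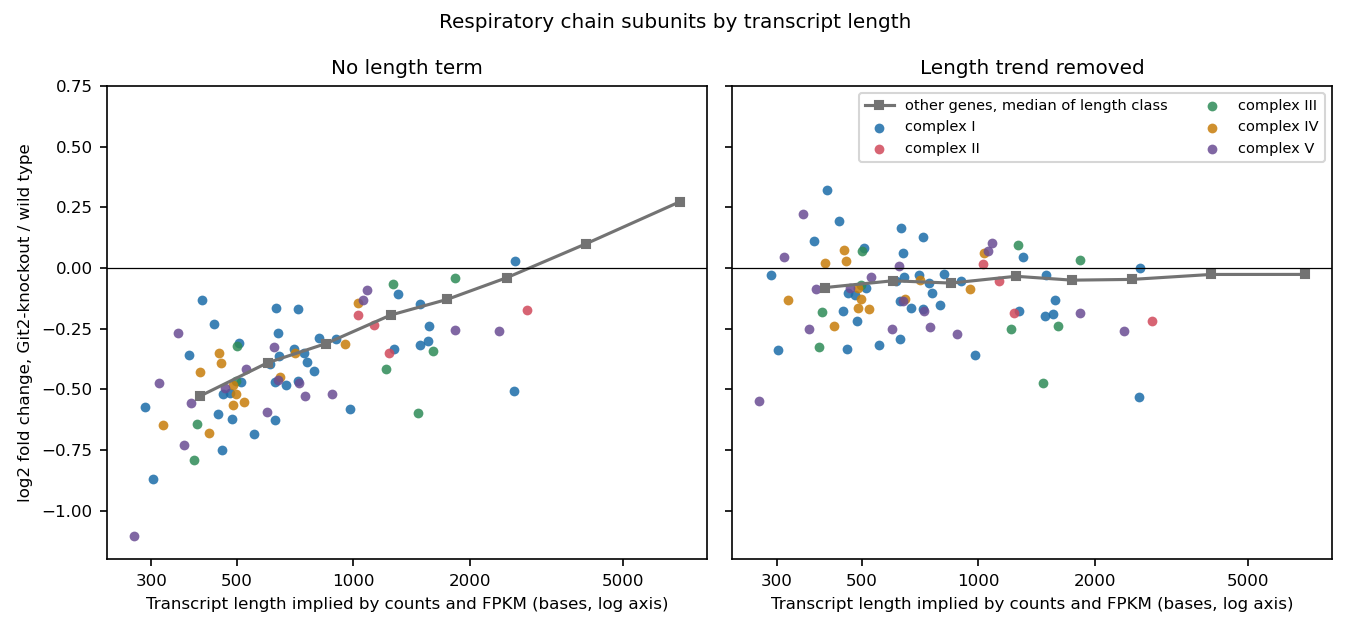
Log2 fold change (libraries labelled Git2-knockout over wild type) of the 80 tested members against implied transcript length (bases, log axis), coloured by complex, without a length term (left) and with the length trend removed (right); squares are medians of other genes by length class. On the left class medians of members of at most 1500 bases lie near the line of other genes, and those of longer members lie below it. In the class ending at 2000 bases the medians are -0.26 for 5 members and -0.13 for other genes. In the class ending at 3000 bases they are -0.22 for 4 members and -0.04 for other genes. On the right members scatter around a median of -0.10.

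The result for a member depends on how length is measured. With the longest annotated transcript as the length, the direction of each complex's median stayed negative, and rises among members numbered 2. Several members not called with the implied length then fell, among them Sdhc, Atp5j2, Atp5md and Ndufv3, while Ndufa1 lost its fall. The share of falls over all genes in that fit is not given here. With the shortest coding transcript instead, 74 members fell and 0 rose, close to the fit without a length term. Removing the GC trend together with the length trend gave 33 falls and 13 rises among 78 members, beside 28% falls and 17.6% rises over all genes of that fit. Under 6 fits together (no length term, length removed with each of 3 measures of length, length and GC removed, and log2 TPM), 21 members of 78 fell every time, beside 9.16% of 12368 genes. They were 9 members of complex I (Ndufa2, Ndufa3, Ndufa9, Ndufa11, Ndufa12, Ndufb2, Ndufb8, Ndufb10 and Ndufs6), Sdhd in complex II, 3 of complex III (Uqcrq, Uqcr11 and Cyc1), 3 of complex IV (Cox5a, Cox5b and Cox6b1) and 5 of complex V (Atp5k, Atp5a1, Atp5b, Atp5g1 and Atp5g3). Some of these lie outside the rule for named genes and were chosen after their values were seen. The share of 9.16% is over genes of all lengths. Neither the fit without a length term nor that on log2 TPM removes the length trend. The fit with the shortest coding transcript left members close to their values without a length term, as in Ndufa3 (-0.88 and -0.87) and Uqcr11 (-0.80 and -0.79). Falling in these fits therefore adds little about a fall beyond the length trend. No such share was taken over other genes of at most 1000 bases, of which 63.5% fell without a length term.

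**Figure D5:**
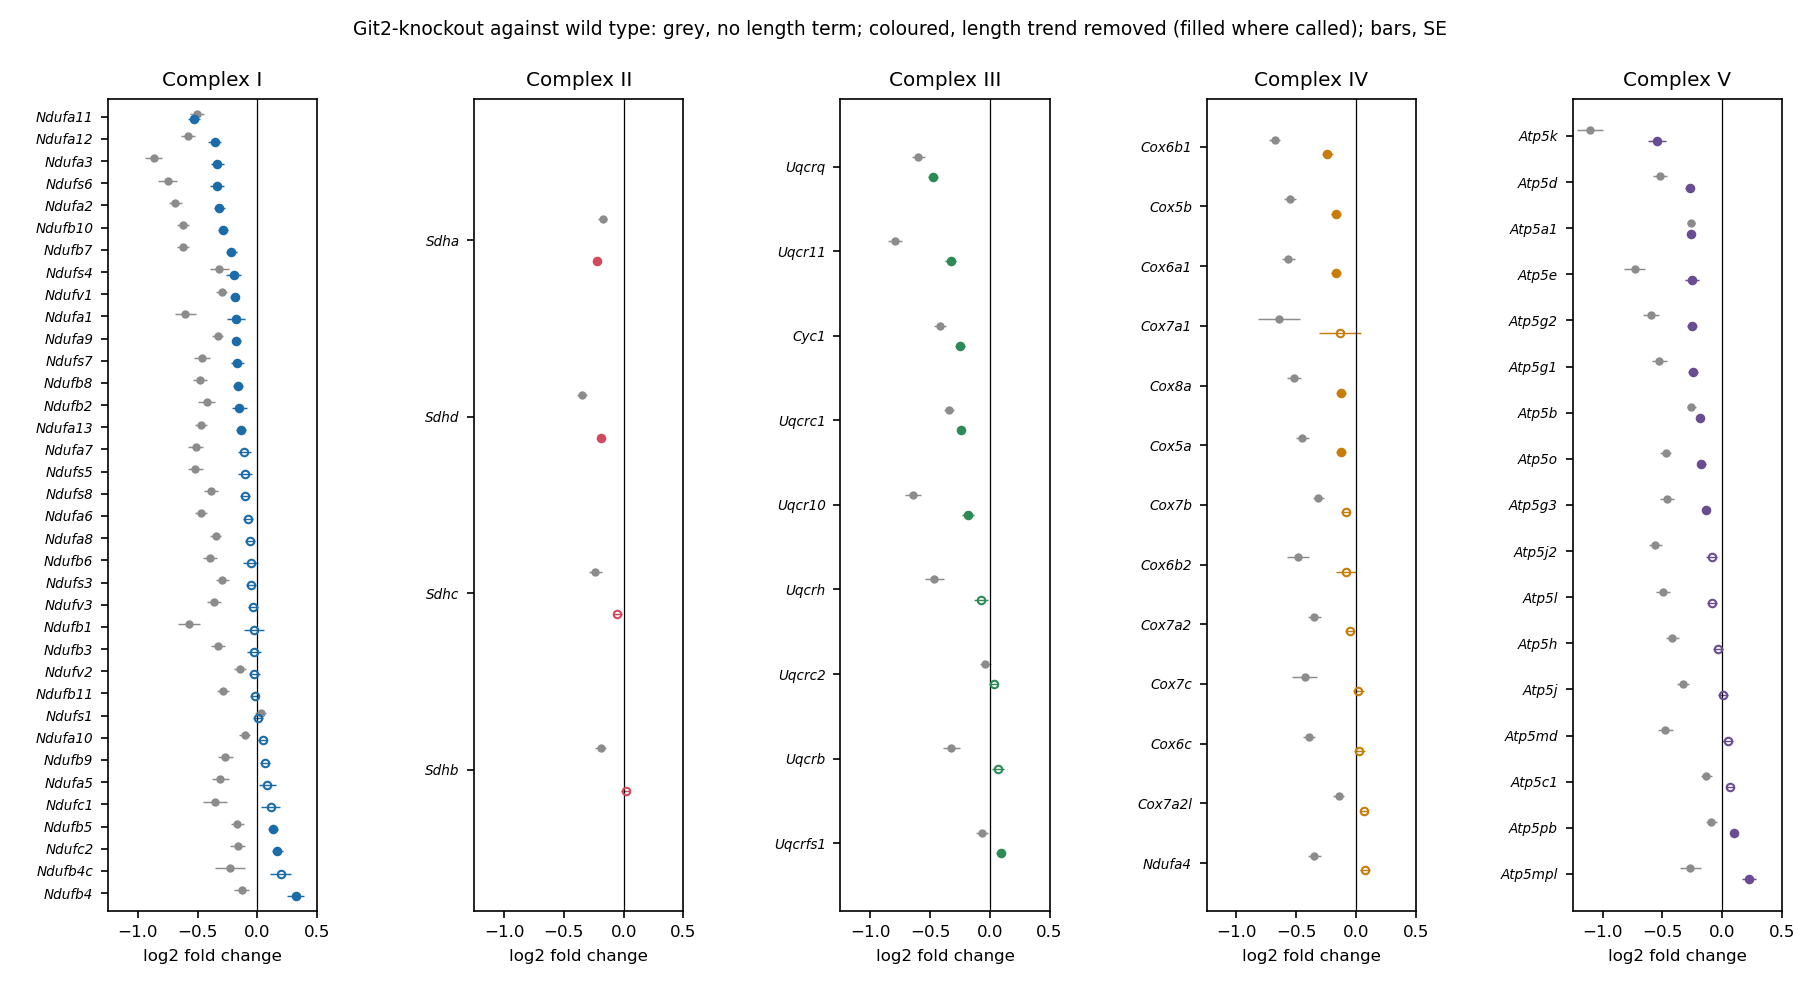
Log2 fold change of 79 of the 80 tested members with its standard error, by complex; grey, no length term; coloured, length trend removed, filled where the adjusted p is under 0.05. Grey points lie below 0 except Ndufs1, while coloured points mostly lie nearer 0 and 6 of them are called above it. Exceptions include Sdha and Ndufa11, whose coloured points lie further below 0, and Ndufb4, whose coloured point lies further from 0 on the other side.

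Nuclear respiratory genes are known to be switched on by NRF1 and by GABP, a factor of the ETS family, through sites close to the transcription start. The 250 bases upstream of each start were read from RefSeq promoters of the GRCm38.p6 build, which differs from the GRCm39 build of the counts, so positions below belong to GRCm38.p6 alone. They were present for 69 of the 85 members, in 74 windows. The NRF1 palindrome, GCGCA followed directly by its reverse complement TGCGC, stood in 4 member windows (5.41%) and in 0.782% of all 32851 windows of that length. The ETS core CCGGAAG, on either strand, stood in 12 member windows (16.2%) and in 6.91% of all windows. Members with the NRF1 palindrome were Ndufa11, Cox6a1, Atp5g2 and Atp5k, from 3 complexes. These 4 are shown, 5′ to 3′ on the gene's strand, with matches in capitals, because they include Atp5k and Ndufa11, which fell in all 6 fits. Cox6a1 and Atp5g2 did not fall in all 6. Of members with the ETS core, Ndufb7, Sdhd, Uqcr11, Cox6a1, Cox6b1 and Atp5e fell with the length trend removed. The others, Ndufb6, Ndufs3, Uqcrh, Atp5h, Atp5j and Atp5l, were not called in that fit. Whether a match goes with a fall was not tested. A match is a run of letters and not a measured site.
Ndufa11, complex I, plus strand, chr17:56717512-56717761: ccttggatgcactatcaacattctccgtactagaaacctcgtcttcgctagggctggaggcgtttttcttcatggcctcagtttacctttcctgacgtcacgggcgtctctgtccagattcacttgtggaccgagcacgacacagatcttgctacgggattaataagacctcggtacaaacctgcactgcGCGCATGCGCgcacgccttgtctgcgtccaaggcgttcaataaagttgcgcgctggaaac
Cox6a1, complex IV, minus strand, chr5:115348959-115349208, where the last capitals are the ETS core on the opposite strand: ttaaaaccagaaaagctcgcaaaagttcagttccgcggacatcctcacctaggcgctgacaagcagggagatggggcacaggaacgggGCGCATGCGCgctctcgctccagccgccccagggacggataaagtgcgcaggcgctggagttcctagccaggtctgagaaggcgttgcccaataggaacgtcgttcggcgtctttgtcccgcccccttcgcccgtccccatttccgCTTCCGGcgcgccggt
Atp5g2, complex V, minus strand, chr15:102671048-102671297: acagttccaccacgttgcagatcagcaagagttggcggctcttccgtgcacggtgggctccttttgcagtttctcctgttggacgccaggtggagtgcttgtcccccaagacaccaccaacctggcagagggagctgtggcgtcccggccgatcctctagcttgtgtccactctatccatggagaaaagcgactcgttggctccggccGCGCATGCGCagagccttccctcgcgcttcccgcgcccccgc
Atp5k, complex V, minus strand, chr5:108434400-108434649: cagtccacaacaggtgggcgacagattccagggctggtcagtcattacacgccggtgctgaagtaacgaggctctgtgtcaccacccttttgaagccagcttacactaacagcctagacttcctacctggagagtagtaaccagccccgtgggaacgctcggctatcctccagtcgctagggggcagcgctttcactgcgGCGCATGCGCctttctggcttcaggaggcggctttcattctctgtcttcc
The palindrome began 60 bases upstream of the start in Ndufa11, 162 in Cox6a1, 42 in Atp5g2 and 50 in Atp5k.

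In complex I the largest falls were in accessory subunits. Ndufa3, a small membrane-arm subunit, stood at 352, 309 and 326 TPM in wild type and 220, 198 and 187 TPM in the libraries labelled Git2-knockout. The groups were far apart, at 61.2% of wild type, and its log2 fold change was -0.87 without a length term (SE 0.07, adjusted p = 7.8e-08) and -0.34 with the trend removed (SE 0.06, adjusted p = 2.5e-05). Ndufa12, an accessory subunit of the peripheral arm, stood at 109, 101 and 96.8 TPM against 74.4, 80.0 and 75.2 TPM. It fell by 0.58 without and by 0.36 with removal of the trend (SE 0.06 in each, adjusted p = 3.4e-07 and 1.4e-05). Ndufs6, which carries a zinc site, stood at 180, 174 and 170 TPM against 129, 116 and 103 TPM, again without overlap, and fell by 0.75 and by 0.34. Its near-identical copy Ndufs6b had almost no counts, so reads shared between them could be split.

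Ndufa2 and Ndufb10 showed the same order of change. Ndufa2 stood at 217, 205 and 209 TPM against 152, 140 and 146 TPM, with a log2 fold change of -0.69 and, trend removed, of -0.32 (adjusted p = 6.1e-08 and 7.9e-06). Ndufb10 stood at 306, 306 and 301 TPM against 225, 226 and 210 TPM, with -0.62 and -0.29 (adjusted p = 4.1e-08 and 4.9e-06). In both genes every library labelled Git2-knockout lay below the lowest wild-type library. Ndufb7 stood at 286, 284 and 293 TPM against 212, 202 and 212 TPM and fell in both fits (-0.62 and -0.22). Its value was -0.01 with the GC trend also removed, so that call depends on the base composition taken into account.

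Ndufa11, an accessory subunit of the membrane arm, had the lowest level of the tested complex I members. It stood at 32.1, 31.7 and 31.6 TPM in wild type and 26.2, 25.3 and 23.6 TPM in the libraries labelled Git2-knockout. It fell by 0.51 without a length term and by 0.53 with the trend removed (SE 0.06 and 0.05, adjusted p = 2.7e-06 and 3.7e-08). Its implied length of 2612 bases exceeds the longest annotated transcript, 918 bases. With 918 bases as the length, the fall was 0.24 (adjusted p = 0.00042), so its size depends on the transcript counted.

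Ndufa6 and Ndufb9, the most abundant complex I member and a further abundant one, were not called once the trend was removed. Ndufa6, an accessory subunit of the peripheral arm, led at 360, 345 and 344 TPM against 290, 283 and 273 TPM. It fell by 0.47 without a length term (adjusted p = 8.5e-07), and its value with the trend removed was -0.08 (adjusted p = 0.10). Ndufb9 stood at 317, 320 and 300 TPM against 311, 271 and 286 TPM, with overlap, and its values were -0.27 (adjusted p = 0.0011) and 0.06 (adjusted p = 0.24). Ndufb9 rose by 0.21 with the GC trend removed too (adjusted p = 0.00017). Among the 7 core subunits, 6 fell without a length term and 3 with the trend removed, among them Ndufv1, which binds the flavin, at -0.30 and -0.19, and Ndufs7 at -0.46 and -0.17. With the GC trend also removed these examples stood at -0.02 and 0.04. Ndufs1, the largest iron-sulphur subunit, had 92.3, 87.9 and 82.9 TPM against 95.3, 105 and 103 TPM, with log2 fold changes of 0.03 and 0.00 that were not called. With the GC trend removed too it fell by 0.10 (adjusted p = 0.032). The core subunits named here were chosen after their values were seen.

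In complex I 3 members rose once the trend was removed. Ndufc2, a small membrane subunit, stood at 171, 172 and 174 TPM against 186, 163 and 166 TPM, with overlap. On counts corrected for the length trend it was at 47.8, 47.9 and 48.4 CPM against 55.8, 52.2 and 53.4 CPM, a log2 fold change of 0.16 (adjusted p = 0.0041), after -0.17 without a length term. Ndufb5 was at 57, 56.9 and 59.1 against 62.6, 60.7 and 65.9 corrected CPM, a rise of 0.13 (adjusted p = 0.019). That call was lost without wild-type replicate 1 (adjusted p = 0.073), wild-type replicate 2 (0.10) or Git2-knockout replicate 3 (0.16). Ndufb4 was at 21.9, 22.6 and 21.1 against 24.1, 29.8 and 28.2 corrected CPM, a rise of 0.32 (adjusted p = 0.00064). It was 0.12 with the longest annotated transcript as the length (adjusted p = 0.15). Ndufb4 has near-identical copies, Ndufb4b and Ndufb4c, so its counts are uncertain. All 3 rises turned to values below 0 with the shortest coding transcript as the length, at -0.18 for Ndufc2, -0.18 for Ndufb5 and -0.13 for Ndufb4.

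In complex II, which also works in the citric acid cycle and has no mitochondrially encoded subunit, 4 of 4 genes fell without a length term and 2 of 4 with the trend removed. Sdha, the flavoprotein that oxidises succinate, stood at 279, 281 and 281 TPM in wild type and 263, 283 and 287 TPM in the libraries labelled Git2-knockout. These levels overlapped. Tested on counts, Sdha fell by 0.17 without a length term (SE 0.04, adjusted p = 0.001) and by 0.22 with the trend removed (SE 0.03, adjusted p = 3.1e-06). Sdhb, the iron-sulphur subunit, stood at 216, 226 and 214 TPM against 211, 215 and 215 TPM, with -0.19 (adjusted p = 0.0014) and 0.02 (adjusted p = 0.75). Sdhb rose by 0.16 with the GC trend removed too (adjusted p = 0.0012). Sdhc, a membrane anchor, stood at 257, 261 and 248 TPM against 255, 230 and 240 TPM, with -0.24 (adjusted p = 0.0011) and -0.05 (adjusted p = 0.25). With the longest annotated transcript as the length, Sdhc fell by 0.30 (adjusted p = 1.4e-05). Sdhd, the other anchor, was the member whose TPM values did not overlap, at 311, 308 and 310 against 277, 268 and 271. It fell by 0.35 and, with the trend removed, by 0.19 (adjusted p = 4.3e-06 and 5.6e-05). Sdha and Sdhd were thus the complex II members called in both fits.

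In complex III all 5 small subunits fell without a length term and 3 of 5 with the trend removed. Uqcrq, a small subunit near cytochrome b, stood at 183, 201 and 202 TPM in wild type and 148, 143 and 141 TPM in the libraries labelled Git2-knockout. Its log2 fold change was -0.60 without a length term and -0.48 with the trend removed (SE 0.05 and 0.04, adjusted p = 1.2e-07 and 2.7e-09). Its implied length was 1467 bases and its annotated coding transcripts run from 405 to 1521 bases. Uqcr11 stood at 326, 329 and 335 TPM against 227, 208 and 204 TPM and fell by 0.79 and by 0.33 (adjusted p = 2.3e-08 and 3.3e-06). Uqcr10 stood at 349, 357 and 380 TPM against 278, 260 and 239 TPM and fell by 0.64 and by 0.18 (adjusted p = 7.3e-07 and 0.0033). The value for Uqcr10 was -0.03 with the GC trend also removed. Uqcrh, the hinge protein that docks cytochrome c, was the most abundant at 524, 451 and 447 TPM against 417, 383 and 350 TPM, and was called only without a length term (-0.46, adjusted p = 0.00057, and -0.07, adjusted p = 0.34). Uqcrb, chosen after its values were seen, stood at 281, 274 and 255 TPM against 266, 229 and 227 TPM. It fell by 0.32 without a length term (adjusted p = 0.0011), stood at 0.07 with the trend removed (adjusted p = 0.23) and fell by 0.14 with the GC trend removed too (adjusted p = 0.010).

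Cyc1, the haem-bearing cytochrome c1, stood at 224, 220 and 225 TPM against 199, 178 and 185 TPM. It fell by 0.42 and, with the trend removed, by 0.25 (SE 0.05 and 0.04, adjusted p = 4.6e-06 and 8.8e-06). Its redox partner Uqcrfs1, the Rieske iron-sulphur protein, stood at 197, 195 and 203 TPM against 223, 202 and 211 TPM, overlapping by 1 library. Uqcrfs1 had a log2 fold change of -0.06 without a length term (adjusted p = 0.31) and rose by 0.09 with the trend removed (adjusted p = 0.042). That rise was lost on leaving out any library except Git2-knockout replicate 2, with adjusted p from 0.074 to 0.21. Of the core proteins, Uqcrc1 fell in both fits (-0.34 and -0.24, adjusted p = 4.8e-06 and 3.2e-06), with -0.06 when the GC trend was removed too. Uqcrc2 stood at 225, 218 and 221 TPM against 242, 231 and 250 TPM, and was not called in either (-0.04 and 0.03). It fell by 0.09 with the GC trend removed too (adjusted p = 0.025).

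Complex IV, cytochrome c oxidase, has tissue isoforms of several subunits, and in these cells the widely expressed partner was the higher in each pair below. Cox6a1 was at 786, 831 and 893 TPM in wild type and 644, 623 and 627 TPM in the libraries labelled Git2-knockout, while its heart and muscle partner Cox6a2 was at 0 to 0.35 TPM in all 6 libraries. Cox8a was at 644, 623 and 654 TPM against 539, 466 and 492 TPM, and Cox8b at 0 to 0.43 TPM. Ndufa4 was at 503, 540 and 497 TPM against 478, 435 and 438 TPM, and Ndufa4l2, the partner induced by low oxygen, at 0.35 to 0.47 TPM. Cox7a2 was at 232, 234 and 232 TPM against 215, 197 and 199 TPM, and the muscle form Cox7a1 at 24.2, 18.6 and 25.2 TPM against 17.7, 14.3 and 16.4 TPM. Cox6b1 exceeded the testis form Cox6b2, which was at 51.1, 57.3 and 55.8 TPM against 46.2, 44.9 and 42.3 TPM. Cox7a1 and Cox6b2 were thus present too, with means over all libraries of 19.4 and 49.6 TPM, beside a median of 18.8 TPM for all tested genes. Cox6a2, Cox8b and Ndufa4l2 had too few counts to be tested, as had Ndufb4b and Ndufs6b of complex I.

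All 13 tested members of complex IV fell without a length term and 5 did so with the trend removed. Cox6b1, which faces the intermembrane space, stood at 633, 624 and 652 TPM against 446, 463 and 423 TPM. It fell by 0.68 and by 0.24 (SE 0.05 and 0.04, adjusted p = 1.1e-08 and 7.2e-05). Cox5b, a matrix-side subunit, stood at 458, 432 and 424 TPM against 338, 329 and 335 TPM and fell by 0.55 and by 0.17 (adjusted p = 9.2e-08 and 0.0019). Cox6a1 fell by 0.57 and 0.17 and Cox8a by 0.52 and 0.13 (adjusted p = 0.0037 and 0.0081 with the trend removed). With the GC trend removed too, Cox6a1 stood at 0.03 and Cox8a at 0.07, both above 0 and not called. Cox5a, chosen after its values were seen, fell by 0.45 and by 0.13.

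The other 8 tested members of complex IV were not called once length was taken into account. Cox7c, a small membrane subunit, stood at 677, 630 and 630 TPM against 618, 502 and 484 TPM. Its log2 fold change was -0.43 without a length term (adjusted p = 0.0085), 0.02 with the trend removed (adjusted p = 0.74) and -0.37 with the GC trend removed too (adjusted p = 1.2e-08). The call without a length term was lost without Git2-knockout replicate 2 (adjusted p = 0.051). Ndufa4 stood at -0.35 and 0.07, Cox7a2 at -0.35 and -0.05, and Cox6b2 at -0.48 and -0.08. Cox7a2l, which helps complexes III and IV assemble together, stood at 380, 377 and 389 TPM against 394, 378 and 387 TPM, with -0.14 (adjusted p = 0.011) and 0.06 (adjusted p = 0.10). The fall without a length term was lost without wild-type replicate 3 (adjusted p = 0.056). Cox7a2l rose by 0.09 with the GC trend removed too (adjusted p = 0.019).

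In complex V all 5 members of the F1 head and central stalk fell without a length term and 4 of 5 with the trend removed. Atp5b, the catalytic beta subunit and the most abundant member, stood at 1489, 1521 and 1515 TPM in wild type and 1391, 1409 and 1431 TPM in the libraries labelled Git2-knockout. It fell by 0.26 and by 0.18 with the trend removed (SE 0.04 and 0.03, adjusted p = 1.3e-05 and 3.7e-06). Atp5a1, the alpha subunit, stood at 931, 912 and 919 TPM against 844, 858 and 875 TPM and fell by 0.26 in each fit (adjusted p = 1.0e-05 and 4.4e-08). Both have transcripts well above the members' median length, at 1830 and 2383 bases. Atp5d, the delta subunit of the central stalk, stood at 565, 616 and 639 TPM against 492, 453 and 473 TPM and fell by 0.52 and by 0.27. With the GC trend removed too it stood at -0.07 (adjusted p = 0.081). Atp5e, the epsilon subunit, fell by 0.73 and by 0.25, and its value with the GC trend removed too was -0.12 (adjusted p = 0.076). Atp5c1, the gamma subunit that turns inside the head, fell by 0.13 without a length term (adjusted p = 0.025) and stood at 0.07 with the trend removed (adjusted p = 0.080). Atp5c1 rose by 0.11 with the GC trend removed too (adjusted p = 0.0067). Atp5e and Atp5c1 were chosen after their values were seen.

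The c-ring, the rotor through which protons pass, is built from 1 mature protein encoded by Atp5g1, Atp5g2 and Atp5g3. All 3 genes fell in both fits. Atp5g3 dominated at 1127, 1148 and 1210 TPM against 988, 889 and 887 TPM, with log2 fold changes of -0.46 and -0.13 (adjusted p = 2.9e-05 and 0.002). Atp5g1 stood at 296, 312 and 321 TPM against 259, 228 and 234 TPM, with -0.53 and -0.24. Atp5g2, shown above with its promoter, stood at 375, 362 and 379 TPM against 304, 266 and 255 TPM, with -0.59 and -0.25. Its value with the GC trend removed too was -0.01, whereas Atp5g1 and Atp5g3 kept their falls at -0.30 and -0.09.

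Among the small membrane subunits, Atp5k had the largest fall in both fits, and it was second to Atp5g1 of the c-ring within complex V with the longest transcript as the length (-0.62 and -0.70). Atp5k, subunit e, sits where ATP synthases pair into dimers. It stood at 240, 221 and 237 TPM in wild type and 144, 119 and 99.1 TPM in the libraries labelled Git2-knockout, 51.9% of wild type. Its log2 fold change was -1.11 without a length term (SE 0.11, adjusted p = 6.4e-06) and -0.55 with the trend removed (SE 0.08, adjusted p = 3.4e-06). Corrected for the trend it was at 26.0, 24.1 and 26.8 CPM against 19.4, 17.7 and 15.4 CPM, still without overlap. It is also the shortest member, at 271 bases, where the length curve rests on the fewest genes. Its dimer partner Atp5l, subunit g, stood at 462, 431 and 428 TPM against 369, 335 and 342 TPM, with -0.50 (adjusted p = 1.5e-06) and -0.08 (adjusted p = 0.098). Atp5l fell by 0.11 with the GC trend removed too (adjusted p = 0.028) and by 0.10 with the longest transcript as the length (adjusted p = 0.046). Atp5j2, subunit f, stood at 575, 640 and 628 TPM against 484, 467 and 448 TPM, with -0.56 and -0.09 (adjusted p = 0.097 in the second fit). With the longest transcript as the length Atp5j2 fell by 0.31 (adjusted p = 3.8e-06).

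Rises in complex V were limited to Atp5mpl and Atp5pb with the length trend removed. Atp5mpl, a small membrane subunit, stood at 246, 220 and 213 TPM against 237, 211 and 183 TPM. It had a log2 fold change of -0.27 without a length term (adjusted p = 0.026) and of 0.22 with the trend removed (adjusted p = 0.0033), with overlapping groups on both scales. The first call was lost without wild-type replicate 1 or Git2-knockout replicate 2 or 3 (adjusted p = 0.094, 0.098 and 0.075). Atp5pb, the b subunit of the peripheral stalk, stood at 429, 432 and 420 TPM against 461, 433 and 449 TPM. It rose by 0.10 with the trend removed (adjusted p = 0.011), a call lost without wild-type replicate 3 or Git2-knockout replicate 3 (adjusted p = 0.093 and 0.069). Atp5o, which joins that stalk to the head, fell in both fits, by 0.47 and by 0.18, and stood at -0.06 with the GC trend removed too.

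Other genes of the same machinery were compared by lists, with the background shares given above. Atpif1, the protein that inhibits complex V when it runs backwards, stood at 294, 301 and 291 TPM against 217, 217 and 211 TPM. It fell by 0.62 without a length term and by 0.41 with the trend removed (adjusted p = 1.1e-08 and 5.7e-09). Cox4i1, the regulatory subunit of complex IV that the naming rule does not take, stood at 1408, 1466 and 1497 TPM against 1229, 1165 and 1147 TPM. It fell by 0.46 and by 0.16, with 0.03 when the GC trend was removed too, and its partner Cox4i2 was at 0.16 to 0.80 TPM and not tested. Cycs, cytochrome c, fell only with the trend removed (-0.12, adjusted p = 0.075, and -0.19, adjusted p = 0.0023).

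Assembly factors fell in part. Over all genes 27.4% fell and 29.6% rose without a length term, and 32.8% fell and 23% rose with the trend removed. With the trend removed, only the complex III list exceeded that share of falls. Of 6 complex III factors 5 fell in both fits, among them the chaperones Uqcc2 (-0.70 and -0.26), Uqcc3 (-0.55 and -0.27) and Bcs1l, which inserts the Rieske protein (-0.40 and -0.32). Of 22 tested complex IV factors 12 fell and 1 rose without a length term, and 7 fell and 2 rose with the trend removed. Cox10, which makes haem for the oxidase, was at 9.95, 9.93 and 11.2 TPM against 6.74, 7.25 and 8.09 TPM and fell by 0.66 and by 0.71. Cox17, the copper chaperone, was at 225, 225 and 187 TPM against 155, 145 and 126 TPM and fell by 0.74 and by 0.28. Of 14 complex I factors 5 fell and 0 rose without a length term, and 2 fell and 1 rose with the trend removed, Timmdc1 falling in both (-0.42 and -0.34) and Tmem126b rising in the second (0.43). Of 4 complex II factors 1 fell and 0 rose without a length term, and 1 fell and 1 rose with the trend removed. Sdhaf1, which helps insert the iron-sulphur clusters of Sdhb, fell in both (-0.55 and -0.32). Sdhaf3 rose in the second, at 0.29 to 0.45 when single libraries were left out, and 0 of the 4 rose with the GC trend removed too. For complex V, 1 of 4 factors, Fmc1, fell in both (-0.85 and -0.39).

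In the citric acid cycle, which feeds the chain, 9 of 16 genes fell and 2 rose without a length term, and 7 fell and 2 rose with the trend removed. Mdh2, malate dehydrogenase, fell by 0.42 and by 0.25, and Ogdh, of the 2-oxoglutarate dehydrogenase, by 0.22 and by 0.38. Dld, the dehydrogenase subunit shared by several such complexes, rose in both fits (0.25 and 0.27), with -0.01 when the GC trend was removed too. Of 13 genes of ubiquinone synthesis 6 fell and 0 rose without a length term and 5 fell and 1 rose with the trend removed. With the GC trend removed too, 0 of the 13 were called by edgeR.

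Of the 9 regulators of respiratory genes, 5 rose and 3 fell without a length term, and 2 rose and 4 fell with the trend removed. Gabpa, the DNA-binding subunit of GABP, stood at 18.8, 18.9 and 18.3 TPM in wild type and 32.4, 32.4 and 30.4 TPM in the libraries labelled Git2-knockout. It rose by 0.59 and by 0.40 (adjusted p = 8.6e-08 and 6.6e-07), and by 0.14 with the GC trend removed too. Its partner Gabpb1 rose by 0.40 and by 0.34. Esrra, an orphan nuclear receptor active on respiratory genes, stood at 255, 266 and 266 TPM against 212, 210 and 207 TPM and fell by 0.49 and by 0.46 (adjusted p = 1.0e-07 and 1.6e-10). Nrf1, which lies outside the rule for named genes and was chosen after its values were seen, stood at 19.5, 19.3 and 19.8 TPM against 16.6, 18.5 and 18.6 TPM. Nrf1 fell by 0.23 and by 0.29 (adjusted p = 0.0052 and 0.0003). Pprc1, a coactivator of the PGC-1 family, fell by 0.32 and by 0.54. Of 11 genes of mitochondrial DNA upkeep and transcription, 3 fell and 1 rose without a length term and 5 fell and 2 rose with the trend removed. Polrmt, the mitochondrial RNA polymerase, fell in both (-0.28 and -0.41), as did the helicase Twnk (-0.31 and -0.35), and Tfb2m, a transcription factor of mitochondria, rose in both (0.36 in each).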

How the data were processed

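RNA captured on oligo(dT) was sequenced from 3 wild-type and 3 Git2-knockout samples, per the labels' protocols. Tools named in the submitters' processing notes are RSEM, Bowtie2 and HISAT, on the GRCm39 build, and their roles, versions and strand setting are not stated. The authors deposited 1 table of 18159 genes with estimated counts, of which 58.9% to 69.2% per library are not whole. FPKM and TPM values were deposited beside them, per the file headers. Group averages in the table were not used.

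Estimated counts were rounded and tested with edgeR 4.0.16 in R 4.3.3 (filterByExpr, TMM, robust quasi-likelihood test, two-sided, no covariates), with Benjamini-Hochberg adjustment over all genes tested and a threshold of 0.05. Each standard error is the absolute log2 change over the root of its F statistic. The length implied by counts and FPKM (FPKM of at least 0.5) covered 93.1% of tested genes. A loess curve per library (span 0.5) against log2 length was entered as an offset in a second fit. The curve was fitted to each gene's log2 CPM minus its mean log2 CPM over the libraries. GC content and annotated lengths were taken from GENCODE (GRCm38) transcripts, matched for 78 of 80 tested members. Effective length per library as an offset, RLE scaling, library totals, DESeq2 1.42.0, limma-trend (limma 3.58.1) on log2(TPM + 1), omitting the filter, requiring 5 CPM in 3 libraries, a span of 0.3, a replicate block and leaving out each library were alternatives. A further 2, removal of the GC trend alone and the shortest coding transcript as length, were chosen after seeing the data. The steps were tested on simulated data. A few named genes are counted and not reported here.

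Members, lists and tests were chosen with earlier results of these data known. The text names, per complex, the 3 most abundant members, up to 4 called members per direction and fit with the smallest p, members called in opposite directions, all of complex II, tissue isoforms, the inhibitor of complex V, members failing the filter, and up to 3 called genes per list and fit. Each library was counted as a replicate. Chi-square statistics per degree of freedom were 1.58 to 7.15 between replicates and 29.9 to 42.7 between groups. These values do not show whether the libraries come from separate animals.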

Additional observations from a re-analysis of the deposited data

How the results depend on the processing

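The length trend was tied to group and differed among libraries, so a change shared by all short transcripts and a trend from library preparation cannot be told apart. Cox7a1, the tested member of lowest level at 19.4 TPM, had the largest standard error (0.18), so depth limits it most.

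Without a length term, limma-trend on log2(TPM + 1) gave 2 rises in all (1 in complex I, 1 in complex III), 1 fall in complex II, and 0.016 for Cox7a2l and 0.00796 for Coq8a in place of falls. Removing GC alone turned Coq10b to -0.18, Dld to -0.14 and Sdhaf3 to -0.36.

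With the length trend removed, rises among members varied most. No filter gave 3 rises (0 in complex III, 1 in complex V). A filter of 5 CPM, which tests fewer genes, gave 12 (5 in complex I, 2 in complex III, 2 in complex IV) and 3 falls in complex IV. Length and GC removed together gave 13 (6 in complex I, 1 in complex II, 1 in complex IV, 4 in complex V), with Cox6a1 at 0.029, Cox7c at -0.37, Cox8a at 0.065, Cox4i1 at 0.028 and Dld at -0.0087. The longest transcript as length gave 2 (1 in complex I, 0 in complex V), with Ndufab1 at -0.32 and Sdhaf3 at -0.076. Why these differ was not tested. Leaving out single libraries gave 3 to 8 rises in all, 0 to 1 in complex III and 1 to 3 in complex V. Git2-knockout replicate 3 gave the lowest total, and Git2-knockout replicate 2 was the library whose omission kept the rise in complex III.

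Effective length as an offset does not remove the trend. It gave 72 falls and 0 rises (falls 33 in complex I, 4 in complex II, 13 in complex IV and 15 in complex V, and 0 rises in complexes I, III and V). Values then below 0 were Atp5mpl -0.24, Atp5pb -0.069, Cox7a2l -0.12, Cox7c -0.41, Ndufa4 -0.33, Ndufb4 -0.11, Ndufb5 -0.15, Ndufb9 -0.24, Ndufc2 -0.14, Sdhb -0.17, Uqcrfs1 -0.042, Ndufab1 -0.21 and Sdhaf3 -0.089. The shortest coding transcript as length gave 74 falls and 0 rises (falls 33 in complex I, 4 in complex II, 13 in complex IV and 17 in complex V, and 0 rises in complexes I, III and V). Values below 0 were then Atp5mpl -0.28, Atp5pb -0.11, Cox7a2l -0.14, Cox7c -0.44, Ndufa4 -0.36, Ndufb4 -0.13, Ndufb5 -0.18, Ndufb9 -0.27, Ndufc2 -0.18, Sdhb -0.19, Uqcrfs1 -0.070, Ndufab1 -0.24 and Sdhaf3 -0.12.

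With the replicate number as a block, 73 members fell and 0 rose without a length term, and 37 fell and 6 rose with the trend removed, and no call of a named gene changed. Deviations of libraries with the same number correlated at -0.01 to 0.04, and those with different numbers at -0.04 to 0.04. No pairing by number was seen, but deviations among so few libraries cannot exclude it.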
